A study of Mus musculus with 6 samples.

Results

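The replication-dependent histone genes make the messenger RNAs for the core histones H2A, H2B, H3 and H4 and for the linker histone H1. They were taken here by symbol, as the rows named H1f1 to H1f5 or H2ac, H2bc, H3c or H4c with a number. There were 67 of them among 22614 rows of the deposited table, with 5 in class H1, 18 in H2A, 19 in H2B, 12 in H3 and 13 in H4. The rule reads names alone and no expression value, but the set was chosen with earlier results of these data known. The table covers RAW264.7, a mouse macrophage cell line, in 2 groups of 3 libraries each. For 24 h one group received nanoparticles (CM-PEG-PLGA@DOX/R848) dosed to carry as much DOX as 2 µg/mL, and the other received phosphate buffered saline (PBS) for the same time. DOX is doxorubicin, a topoisomerase II poison, R848 (resiquimod) activates Toll-like receptors, and PEG and PLGA are polymers. The labels do not spell out CM, name no group that received empty particles or either drug alone, and do not say whether replicates were separate cultures. The p-values therefore reflect how far these samples vary, which may be technical variation alone.

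Core histones form the octamer that DNA wraps around, and H1 binds the linker DNA between nucleosomes. In a dividing cell most of these genes are transcribed in S phase, when newly made DNA has to be packed, and their mRNAs are removed when replication ends or is blocked. Their mRNAs are also unusual at the 3′ end. They normally carry no poly(A) tail and end just after a short stem-loop that binds the protein Slbp, although some of these genes also make polyadenylated transcripts, mostly in cells that have stopped dividing.

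The stem-loop was searched in the annotated transcripts (GENCODE M21, GRCm38) because it is the feature that sets these mRNAs apart from other mRNAs. The search, on the sense strand, asked for GG, 2 free bases, CTTTT, 1 free base, AG, 2 free bases and CC, with the 2 free pairs complementary so that the stem can form. It was found once in each of 43 of the 67 members, against 6 of 21835 other protein-coding genes (0.0275%). Those 6 were H2ax, H1f6 and H2bfm, which are histone genes outside the 67 members, Trim17, which overlaps H2ac25, and Nova2 and Syncrip. Most stem-loops (26 members, in H1, H2A, H2B and H3) had the letters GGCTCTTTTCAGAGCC. The 11 found in H4 had stems of their own, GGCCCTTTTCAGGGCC in 7, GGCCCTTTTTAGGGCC in H4c9 and H4c14, and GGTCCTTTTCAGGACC in H4c2 and H4c11. The loops of the most abundant members and of the main variants are printed here in DNA letters, 5′ to 3′, with the stem-loop in capitals.
H1f2: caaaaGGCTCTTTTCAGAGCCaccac
H2ac18: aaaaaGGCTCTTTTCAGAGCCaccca
H2ac8: acaaaGGCTCTTTTCAGAGCCattca
H2bc8: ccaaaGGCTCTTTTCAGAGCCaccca
H2bc12: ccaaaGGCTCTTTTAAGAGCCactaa
H3c15: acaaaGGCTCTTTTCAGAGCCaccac
H4c9: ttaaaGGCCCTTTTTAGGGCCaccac
H4c8: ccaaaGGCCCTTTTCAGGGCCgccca
H4c11: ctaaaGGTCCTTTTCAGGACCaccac
H2ac18 and H2ac8, printed above, hold the same stem-loop letters, and their ratios of nanoparticle to PBS level were 32.3 and 1.49. These members were picked after their ratios were seen. Their annotated transcripts also differ, ending 35 bases after the stem-loop in H2ac18 and 151 in H2ac8. The split of reads between H2ac18 and its near-copy H2ac19 is uncertain. The part of the stem-loop in the ratios was not tested. Of the 24 members without a match, 13 were annotated as little more than their coding part, so their annotation stops before a stem-loop could appear.

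The histone genes were higher in the nanoparticle libraries as a whole and in every class. The values are FPKM, a read level scaled by transcript length and library size. The FPKM of all 67 members summed to 712, 686 and 632 in the nanoparticle libraries, against 66.0, 57.7 and 55.0 in the PBS libraries. The means were 677 ± 40.7 with nanoparticles and 59.6 ± 5.74 with PBS (SD, n = 3 each), a ratio of 11.4. Every nanoparticle library lay above every PBS library, and the gap between the groups was far wider than the spread inside either.

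The ratio of summed FPKM differed by class, with H4 and H2A at the top and H1 at the bottom. H4, the most conserved core histone, summed to 200, 196 and 176 FPKM with nanoparticles and to 14, 10.9 and 12.5 with PBS, a ratio of means of 15.3. H2A summed to 237, 210 and 188 FPKM with nanoparticles and to 16.3, 12.7 and 13.1 with PBS, a ratio of 15.1. H2B, which pairs with H2A in the nucleosome, summed to 169, 173 and 168 FPKM with nanoparticles and to 13.3, 13.5 and 11.4 with PBS, a ratio of 13.4. In these 3 classes the lowest nanoparticle library was more than 10 times the highest PBS library. H3, the partner of H4, summed to 50.7, 51.2 and 47.5 FPKM with nanoparticles and to 6.08, 5.50 and 5.18 with PBS, a ratio of 8.92. The linker histone class H1 summed to 54.8, 55.3 and 51.9 FPKM with nanoparticles and to 16.3, 15.1 and 12.8 with PBS, a ratio of 3.67. The groups did not overlap in any class. This order belongs to the sums, which a few abundant genes dominate. By the median ratio of single members H2A was lowest at 4.71, then H3 at 5.71 and H1 at 8.96. H4 had a median of 12.5 and H2B of 13.3.

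The libraries were enriched for mRNA, and the sources used here do not state whether that step selected poly(A) tails. More histone mRNA and a larger polyadenylated part of it cannot be told apart in these data, nor can more cells in S phase and more histone mRNA in each cell. Of a list of noncoding RNAs without a tail, the 1 name found in the table was Lars2, which is a protein-coding gene, with 78.6 ± 7.35 FPKM with nanoparticles and 57.4 ± 8.95 with PBS (SD, n = 3 each). The part of the enrichment in the result was not tested.

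**Figure D1:**
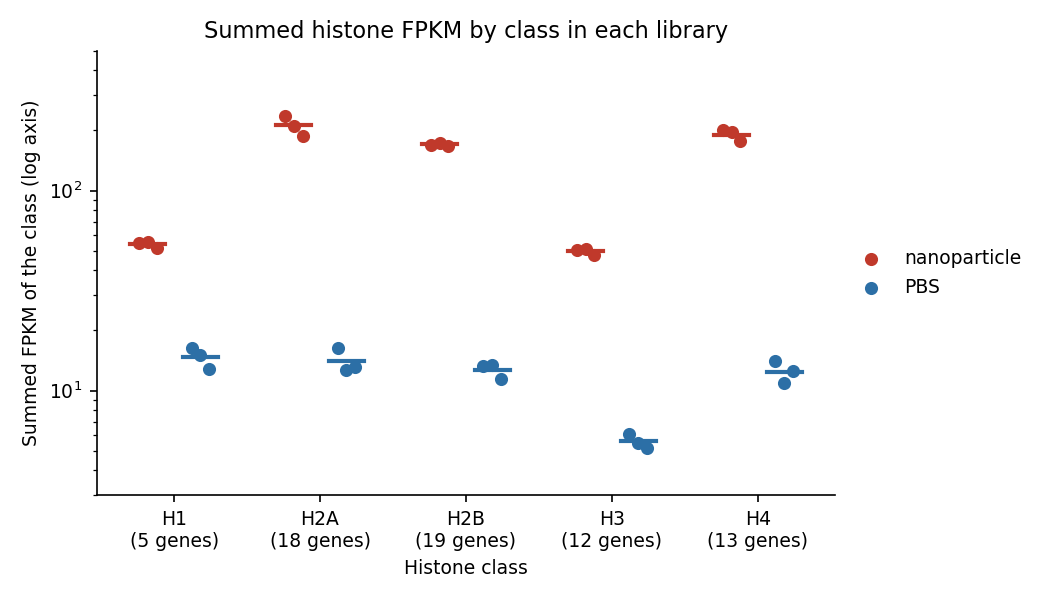
Summed FPKM of each histone class (log axis) in the 3 nanoparticle libraries (red, left) and the 3 PBS libraries (blue, right); points are libraries and bars are group means. In each class all 3 nanoparticle libraries lie above all 3 PBS libraries, with the narrowest gap in H1 (51.9 against 16.3 FPKM for the nearest pair).

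The mix of classes shifted with these unequal ratios. H1 made up 7.70 to 8.22% of the summed histone FPKM in nanoparticle libraries and 23.3 to 26.1% in PBS libraries. H3 made up 7.13 to 7.51% with nanoparticles and 9.21 to 9.52% with PBS. H4 held 27.9 to 28.6% with nanoparticles and 18.9 to 22.7% with PBS, and H2A held 29.8 to 33.3% with nanoparticles and 22.1 to 24.6% with PBS. H2B held 23.8 to 26.6% with nanoparticles and 20.2 to 23.4% with PBS. These shares follow from the class sums and are no separate measurement. In the summed FPKM of both groups H3 was well below H4, its partner in the nucleosome, although nucleosomes hold both in equal number. FPKM is divided by an annotated transcript length, so sums over genes also depend on the annotation. In GENCODE M21 the transcripts of these members run from coding part alone to several kilobases. The lengths behind the deposited values are not known here and may differ.

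**Figure D2:**
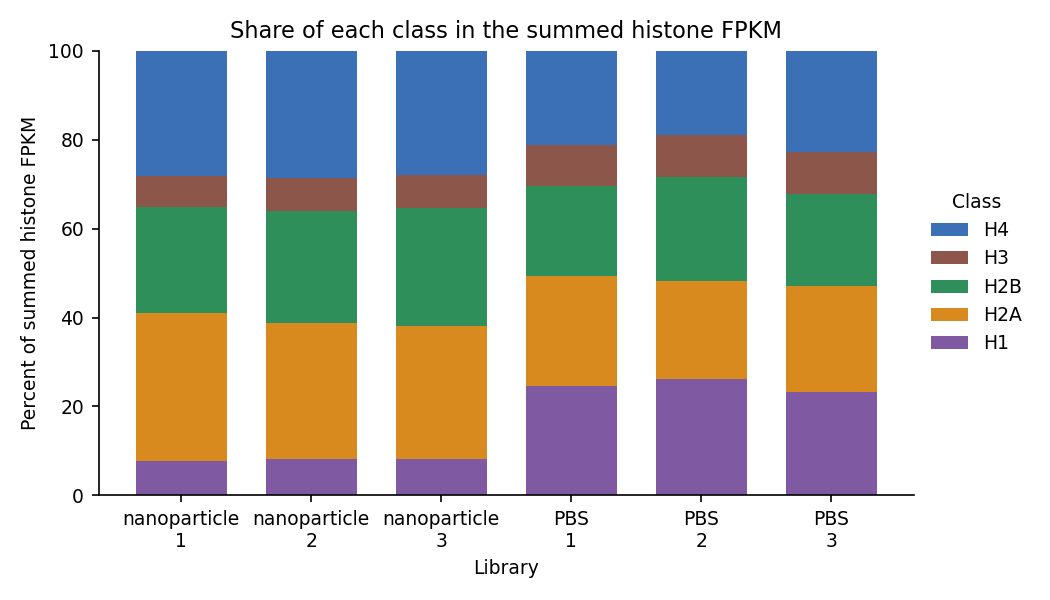
Percent of the summed histone FPKM held by each class in each library, nanoparticle libraries on the left and PBS libraries on the right; the 5 classes of a bar add to 100%. The H1 part is 7.70 to 8.22% in nanoparticle libraries and 23.3 to 26.1% in PBS libraries.

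Counted by gene, 61 of the 67 members had every nanoparticle library above every PBS library, and none had every PBS library above. Over all 18008 genes with a value above 0, 39.4% had nanoparticle libraries higher without overlap. Among genes with a PBS mean above 0 and under 1 FPKM, where most histone members lay, that share was 48.4%. By class the count was 5 of 5 in H1, 14 of 18 in H2A, 18 of 19 in H2B, 11 of 12 in H3 and 13 of 13 in H4. The 6 members whose groups overlapped were H2ac1, H2ac8, H2ac11, H2ac15, H2bc26 and H3c3. H2ac1, known as a testis histone, was listed at 0 in every library. H2bc26 is annotated as a processed pseudogene and stood at 0.360, 0.05 and 0.221 FPKM with nanoparticles and at 0, 0.106 and 0 with PBS. H2ac15 had 0.971, 0.483 and 0.749 FPKM with nanoparticles and 0.172, 0.560 and 0.415 with PBS. The levels spanned a wide range. Mean levels ran from 0.399 to 45.9 FPKM with nanoparticles and 0.0499 to 13.7 with PBS over the H1 genes, from 0 to 87.0 with nanoparticles and 0 to 2.69 with PBS over H2A, and from 0.175 to 55.4 with nanoparticles and 0 to 3.23 with PBS over H2B. Over the H3 genes they ran from 0.988 to 10.9 FPKM with nanoparticles and 0.243 to 1.16 with PBS, and over H4 from 0.175 to 98.1 with nanoparticles and 0.0276 to 8.06 with PBS. H3 was thus the class with no abundant gene in either group. A level of at least 1 FPKM in every library of the group was reached by 52 members in nanoparticle libraries and 7 in PBS libraries.

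Tested with limma on log2(FPKM + 1), 47 of the 48 members that averaged 1 FPKM or more over the 6 libraries rose and none fell, at a Benjamini-Hochberg adjusted p of 0.05 over 10229 genes. Over those genes 42.7% rose. This filter is not neutral, since 37 of the 48 members passed it only through the nanoparticle libraries. Among the 11 members with a PBS mean of at least 1 FPKM, all 11 rose, in a background of 40.5% over the 9921 genes chosen by that same rule. Without a filter 66 members could be tested and 61 rose, against 34.7% of 18008 genes. The response is therefore read from the PBS-based count, the count of non-overlapping groups and the levels, and not from the 48 alone, and members that passed through the nanoparticle libraries are given their p from the fit without a filter. The 11 members with a PBS mean of at least 1 FPKM and the 56 below it had the same ratio of summed FPKM, 11.4.

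**Figure D3:**
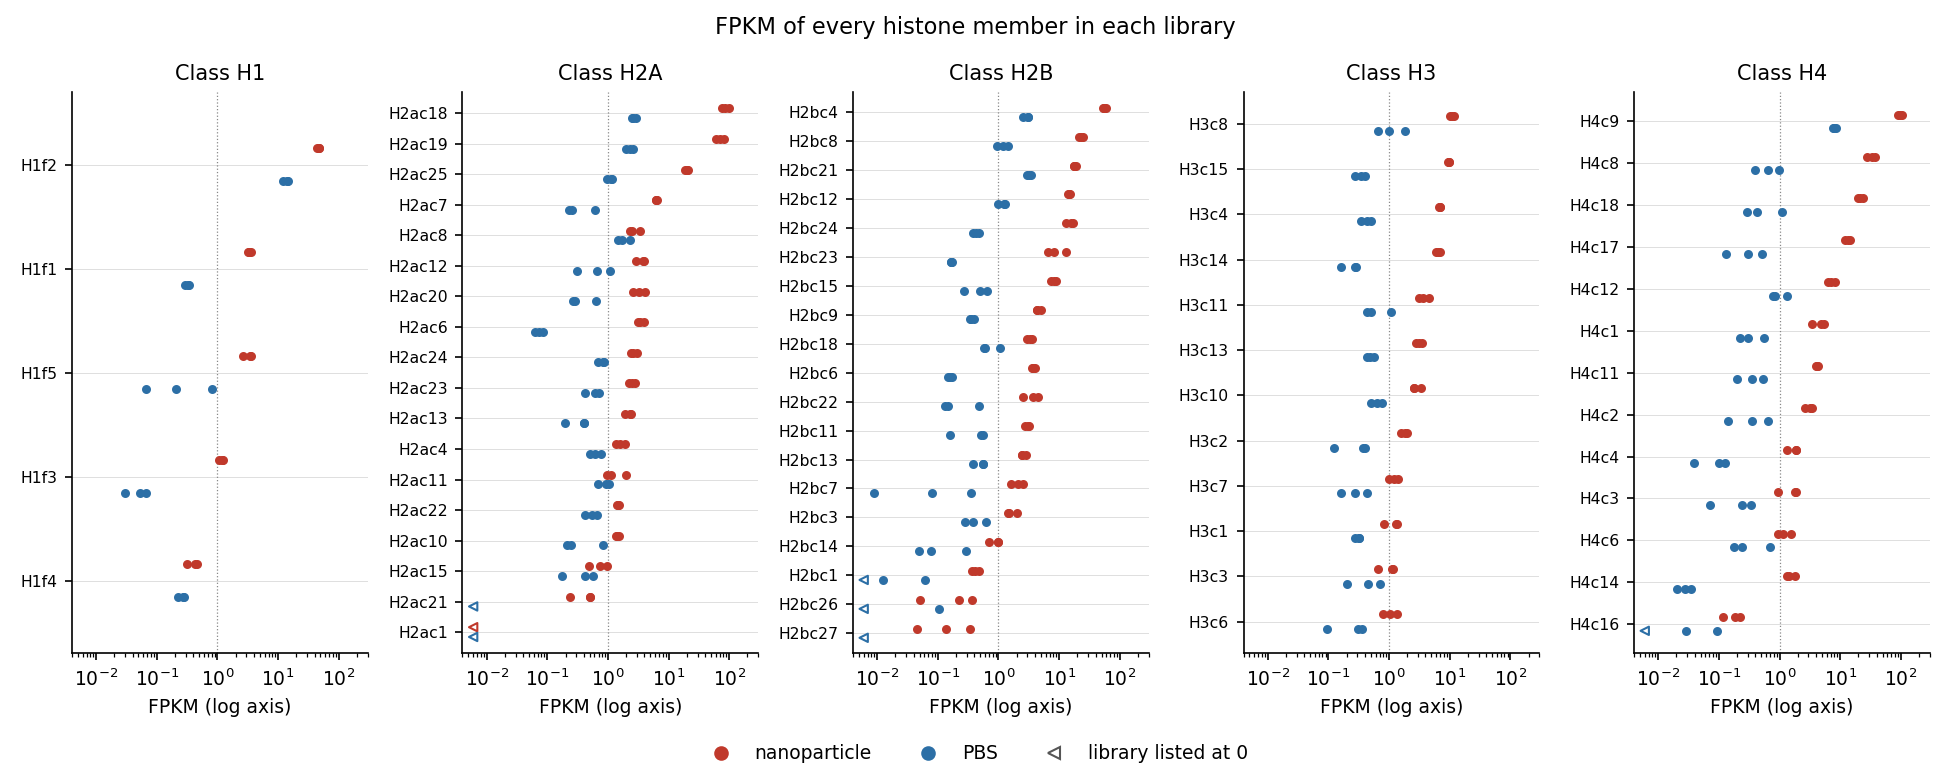
FPKM (log axis) of each of the 67 members in the nanoparticle libraries (red, upper row of each gene) and the PBS libraries (blue, lower row), by class and ordered by mean; open triangles at the left edge mark libraries listed at 0 and the dotted line marks 1 FPKM. The red points lie to the right of the blue points in 61 members, the groups overlap in H2ac8, H2ac11, H2ac15, H2bc26 and H3c3, and H2ac1 is listed at 0 throughout.

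Of the linker histones, H1f2, a somatic H1, carried most of the class. Its gene lies at chr13:23738808-23740367 on the + strand (GRCm38). It had 46.7, 46.6 and 44.3 FPKM with nanoparticles and 14.8, 14.2 and 12.1 FPKM with PBS, a ratio of 3.34 (log2 fold change 1.67 ± 0.08 SE, limma adjusted p = 3.6e-08). H1f2 was the most abundant of all 67 members in PBS libraries and only the fifth in nanoparticle libraries. Its low ratio set that of the class: without H1f2 the log2 ratio of the H1 sum was 3.05 in place of 1.88. H1f1 had 3.38, 3.52 and 3.25 FPKM with nanoparticles and 0.325, 0.342 and 0.293 with PBS (ratio 10.6; limma adjusted p = 2.1e-06 without a filter). H1f5 had 3.39, 3.59 and 2.69 FPKM with nanoparticles and 0.804, 0.207 and 0.0667 with PBS (ratio 8.96; limma adjusted p = 0.00054 without a filter), and its PBS libraries were widely spread. The remaining linker genes were low. H1f3 had 1.07, 1.18 and 1.26 FPKM with nanoparticles and 0.0539, 0.0660 and 0.0299 with PBS, and rose in the fit without a filter (limma adjusted p = 4e-06). H1f4 had 0.313, 0.430 and 0.454 FPKM with nanoparticles and 0.270, 0.224 and 0.279 with PBS, a ratio of 1.55 (limma adjusted p = 0.027 without a filter). H1f4 overlaps H2bc6, which stood at 3.78 FPKM with nanoparticles and 0.160 with PBS, so reads there cannot be split with certainty.

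The H1f2 promoter is shown because H1f2 has the lowest ratio among the 5 most abundant members. It is the 250 bases before the RefSeq start (GRCm38.p6, chr13:23738557-23738806, + strand), with the CCAAT box and the AAACACA box described for H1 genes in capitals.
H1f2 promoter: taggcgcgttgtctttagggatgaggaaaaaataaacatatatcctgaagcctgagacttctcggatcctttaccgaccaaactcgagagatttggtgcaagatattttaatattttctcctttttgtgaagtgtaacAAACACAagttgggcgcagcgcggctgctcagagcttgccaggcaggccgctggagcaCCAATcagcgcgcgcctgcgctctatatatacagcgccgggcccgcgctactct
Over the 300-base windows from 250 bases before to 50 after each RefSeq start, searched on both strands, AAACACA was in 4 of 5 H1 promoters, 2 of 17 H2A, 2 of 14 H2B and none of the H3 and H4 promoters, against 7.18% of all 32851 promoters. CCAAT was in every H1, H2A, H2B and H3 promoter matched and in 3 of 11 H4 promoters, against 37.4% of all promoters. The table matched 57 of the 67 members by symbol.

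In class H2A a pair of near-identical genes led. H2ac18 (chr3:96245497-96246082, + strand) and H2ac19 (chr3:96239749-96240276, − strand) share every 100-base stretch of their transcripts with other genes, so the split of reads between them is uncertain and their sum is the safer value. H2ac18 had 98.6, 85.7 and 76.6 FPKM with nanoparticles and 2.94, 2.51 and 2.62 with PBS, a ratio of 32.3. On the log2(FPKM + 1) scale it rose by 4.57 ± 0.09 (SE, limma adjusted p = 2.3e-10), more than any other tested member in that fit. This rank depended on the 1 added to FPKM. With 0.1 added instead, H4c8, H4c17, H4c18 and H2bc23 had larger log2 fold changes than H2ac18. By ratio, H2bc23 (55.3), H4c8 (48.9) and H2ac6 (47.2) were among the tested members above H2ac18. H2ac19 had 83.0, 70.3 and 61.2 FPKM with nanoparticles and 2.59, 2.35 and 2.02 with PBS, a ratio of 30.8 (limma adjusted p = 6.7e-10). Level for level the copies tracked each other, with H2ac19 at 0.771 to 0.936 of H2ac18 in every library. Together they made 182, 156 and 138 FPKM with nanoparticles and 5.53, 4.86 and 4.65 with PBS, a ratio of 31.6, and they held 21.8 to 25.5% of all histone FPKM with nanoparticles and 8.38 to 8.45% with PBS.

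H2ac25, a lone H2A gene on chromosome 11, came next. It had 20.6, 19.9 and 18.9 FPKM with nanoparticles and 0.951, 1.14 and 1.17 with PBS, a ratio of 18.3 (limma adjusted p = 4.5e-10). Trim17, which overlaps it on the same strand, averaged 0.415 FPKM with nanoparticles and 0.109 with PBS. Most other H2A genes had lower ratios. The median ratio over its 16 members with a value in every PBS library was 4.71, well below the ratio of the class sum. H2ac7 had 6.46, 6.12 and 6.11 FPKM with nanoparticles and 0.603, 0.258 and 0.228 with PBS, a ratio of 17.2. H2ac12, H2ac13, H2ac20, H2ac22, H2ac23 and H2ac24 lay between 1.47 and 3.53 FPKM on average with nanoparticles and between 0.335 and 0.793 with PBS, with ratios of 2.69 to 8.22, and H2ac4 and H2ac10 had ratios of 2.53 and 3.36. H2ac6 stood out among the low genes, with 3.92, 3.41 and 3.15 FPKM with nanoparticles and 0.0866, 0.0628 and 0.0725 with PBS, a ratio of 47.2. H2ac21 had 0.508, 0.501 and 0.238 FPKM with nanoparticles and was listed at 0 in all 3 PBS libraries, so no ratio is given.

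The 2 tested members with the smallest fold changes were also H2A genes. H2ac8 (chr13:23570517-23571220, − strand) had 2.28, 3.40 and 2.47 FPKM with nanoparticles and 2.28, 1.44 and 1.73 with PBS. Its groups met at 2.28 FPKM, and the rise of 0.40 ± 0.14 (SE) on the log2 scale was called, with a limma adjusted p of 0.024. That call was lost without a filter (adjusted p = 0.070), with upper quartile scaling (0.061), without nanoparticle replicate 2 (0.090), without PBS replicate 2 (0.094) and without PBS replicate 3 (0.053). H2ac11 had 0.978, 1.13 and 1.97 FPKM with nanoparticles and 0.938, 1.03 and 0.689 with PBS, a difference of 0.30 ± 0.15 (SE) on the log2 scale with a limma adjusted p of 0.088 (0.16 without a filter). It was the only one of the 48 tested members that was not called, and its nanoparticle replicate 3 stood apart from the others. Without nanoparticle replicate 1 it passed (limma adjusted p = 0.031).

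In class H2B, H2bc4 (chr13:23684199-23692908, + strand) led with 55.4, 58.8 and 52.0 FPKM with nanoparticles and 3.03, 3.10 and 2.50 with PBS, a ratio of 19.2 (log2 fold change 3.86 ± 0.08 SE, limma adjusted p = 2.5e-10). H2bc8 had 21.6, 24.6 and 23.3 FPKM with nanoparticles and 1.46, 1.21 and 0.929 with PBS, a ratio of 19.3 (limma adjusted p = 1.8e-09). H2bc21 had 17.3, 17.7 and 19.1 FPKM with nanoparticles and 2.98, 3.47 and 3.23 with PBS, a ratio of 5.59 (limma adjusted p = 5.6e-09). H2bc21 was the most abundant H2B gene in PBS libraries, ahead of H2bc4, and only the third with nanoparticles. Its annotated transcript of 2620 bases held no stem-loop, and all of its 100-base windows were found in no other gene. H2bc23 had the largest ratio of any member, 55.3, with 6.54, 8.35 and 13 FPKM with nanoparticles and 0.164, 0.173 and 0.167 with PBS. Just 5.4% of the H2bc23 windows were unique, so reads of other H2B genes may be counted there. H2bc24 had 16.8, 15.8 and 13.1 FPKM with nanoparticles and 0.470, 0.386 and 0.425 with PBS, a ratio of 35.8, with 14.2% of its windows unique. H2bc12 had 15.4, 14.1 and 14.6 FPKM with nanoparticles and 1.27, 0.993 and 1.22 with PBS, a ratio of 12.7. Both were apart by a wide margin. H2bc15 had 8.89, 8.13 and 7.26 FPKM with nanoparticles and 0.496, 0.658 and 0.270 with PBS, a ratio of 17.1. H2bc6, H2bc9, H2bc11, H2bc13, H2bc18 and H2bc22 averaged 2.57 to 4.53 FPKM with nanoparticles and 0.160 to 0.749 with PBS, with ratios of 4.41 to 23.7. H2bc3, H2bc7 and H2bc14 were lower still, with ratios of 3.90, 13.9 and 6.39. The median ratio over 16 H2B members was 13.3, close to the ratio of the class sum. H2bc1, known as a testis histone, stood at 0.364 to 0.474 FPKM with nanoparticles and at 0 to 0.0611 with PBS. H2bc27 stood at 0.0449 to 0.341 FPKM with nanoparticles and was listed at 0 in every PBS library.

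In class H3, no member reached the level of the leading H2A, H2B or H4 genes. H3c8 had 10.2, 11.7 and 10.9 FPKM with nanoparticles and 0.992, 0.648 and 1.85 with PBS, a ratio of 9.40 (log2 fold change 2.50 ± 0.17 SE, limma adjusted p = 5.5e-07). H3c15 had 9.91, 9.25 and 9.61 FPKM with nanoparticles and 0.341, 0.271 and 0.395 with PBS, a ratio of 28.6 (limma adjusted p = 8.1e-07 without a filter). H3c4 had 7, 7.07 and 6.57 FPKM with nanoparticles and 0.342, 0.515 and 0.439 with PBS, a ratio of 15.9 (limma adjusted p = 1.8e-06 without a filter). These 3 genes averaged 1.16 FPKM or less in PBS libraries. H3c13, H3c14 and H3c15 share much of their sequence and summed to 19.2 ± 1.01 FPKM with nanoparticles and 1.08 ± 0.0694 with PBS (SD, n = 3 each), a ratio of 17.8. H3c10 and H3c11 averaged 2.87 and 3.77 FPKM with nanoparticles and 0.637 and 0.677 with PBS, ratios of 4.50 and 5.58. H3c1, H3c2, H3c6 and H3c7 averaged 1.06 to 1.77 FPKM with nanoparticles and 0.254 to 0.304 with PBS. The median ratio over the 12 H3 members was 5.71, and H3c3 had the lowest, 2.17, with 1.18, 0.665 and 1.12 FPKM with nanoparticles and 0.445, 0.719 and 0.202 with PBS.

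In class H4, H4c9 (chr13:22040636-22041362, − strand) was the most abundant of the 67 members in nanoparticle libraries. It had 105, 98.8 and 90.3 FPKM with nanoparticles and 7.88, 7.65 and 8.66 with PBS, a ratio of 12.2 (log2 fold change 3.45 ± 0.07 SE, limma adjusted p = 2.5e-10). It alone made 14.5% of the summed histone FPKM with nanoparticles and 13.5% with PBS. H4c8 had 33.3, 37.9 and 27.3 FPKM with nanoparticles and 0.967, 0.649 and 0.396 with PBS, a ratio of 48.9 (limma adjusted p = 3.5e-06 without a filter). H4c18 had 20.9, 19.9 and 23.5 FPKM with nanoparticles and 1.08, 0.420 and 0.287 with PBS, a ratio of 35.9 (limma adjusted p = 8.7e-06 without a filter). H4c17, with 11.9% of its windows unique, had 14.7, 11.8 and 13.4 FPKM with nanoparticles and 0.523, 0.307 and 0.131 with PBS, a ratio of 41.5. H4c1, H4c2, H4c11 and H4c12 averaged 3.10 to 7.14 FPKM with nanoparticles and 0.360 to 0.980 with PBS, with ratios of 7.28 to 12.8. H4c3, H4c4 and H4c6 averaged 1.21 to 1.69 FPKM with nanoparticles and 0.0876 to 0.373 with PBS. The groups of all 13 H4 members were apart. H4c14 had the largest H4 ratio, 55.2, from 1.77, 1.35 and 1.45 FPKM with nanoparticles and 0.0279, 0.0204 and 0.0344 with PBS. How many reads lie behind such low levels is unknown.

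The H4c9 promoter is shown because H4c9 leads the set and because H4 promoters differ from those of the other classes in the CCAAT box. It is the 250 bases before the RefSeq start (GRCm38.p6, chr13:22041363-22041612, − strand), with TATAAA in capitals. This match lies nearer the far end of the stretch than the start, and is not shown to work as a promoter element.
H4c9 promoter: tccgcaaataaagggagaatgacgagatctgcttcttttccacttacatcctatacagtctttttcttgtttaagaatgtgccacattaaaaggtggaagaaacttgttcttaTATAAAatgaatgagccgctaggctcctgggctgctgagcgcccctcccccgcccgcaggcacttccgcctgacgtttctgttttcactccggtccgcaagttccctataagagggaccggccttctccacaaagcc
TATAAA was in 4 of 5 H1, 11 of 17 H2A, 7 of 14 H2B, 4 of 10 H3 and 8 of 11 H4 promoter windows, against 13.6% of all promoters, on either strand. The 4 motifs searched are different words, and none contains another. A match counted wherever it lay in the window, whatever its distance to the start.

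A few genes held about as much of the sum as all the others together. H4c9, H2ac18, H2ac19, H2bc4 and H1f2 made 52.9% of the summed histone FPKM with nanoparticles and 49.9% with PBS. The weight inside that group differed: the 4 without H1f2 made 46.1% with nanoparticles and 26.8% with PBS. Over the 61 members with a value above 0 in every PBS library, the ratio ran from 1.49 in H2ac8 to 55.3 in H2bc23, with a median of 8.22.

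The genes sit in 4 clusters and 1 lone gene, and the ratio of summed FPKM differed between clusters. The 10 members on chromosome 3 (96219865 to 96270132) summed to 204 ± 22.9 FPKM with nanoparticles and 10.5 ± 0.798 with PBS, a ratio of 19.5. H2ac18 and H2ac19 lie in that cluster and made 159 of its 204 FPKM with nanoparticles and 5.01 of its 10.5 with PBS. The 3 members on chromosome 11, mostly H2ac25, summed to 20.2 ± 0.965 FPKM with nanoparticles and 1.12 ± 0.152 with PBS, a ratio of 18. Chromosome 13 holds the large cluster in 2 blocks. The 23 members between 21715763 and 22043676 summed to 226 ± 8.88 FPKM with nanoparticles and 19.7 ± 1.91 with PBS, a ratio of 11.4. The 30 members between 23531050 and 23934851, which include H1f2, summed to 226 ± 13.4 FPKM with nanoparticles and 28.2 ± 3.26 with PBS, a ratio of 8.03 (SD, n = 3 for each mean). H1f2 alone made 45.9 of that 226 FPKM with nanoparticles and 13.7 of that 28.2 with PBS. The cluster ratios thus rest in large part on H2ac18, H2ac19 and H1f2, and were not recomputed without them. H4c16 on chromosome 6 stayed at or below 0.224 FPKM in every library. Among the clusters no groups overlapped.

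Many H2A and H2B genes lie head to head and share the DNA between their starts, so each pair sets 2 genes with 1 stretch of upstream sequence side by side. There were 13 such pairs, with starts 173 to 306 bases apart, and 11 of them had a ratio for both genes. The H2B gene had the larger ratio in 7 and the H2A gene in 4. The widest gaps were between H2ac8 at 1.49 and H2bc8 at 19.3, and between H2ac23 at 4.31 and H2bc23 at 55.3. In H2ac23 and H2bc23, 7.3% and 5.4% of the windows were unique. The split of reads between each of them and other genes, among them members of its own class, is therefore uncertain. In H2ac8 and H2bc8 the shares were 69.3% and 55.1%. In the other direction H2ac6 had a ratio of 47.2 and its partner H2bc4 one of 19.2. No test was run on the pairs, since the genes of a class share sequence and reads.

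**Figure D4:**
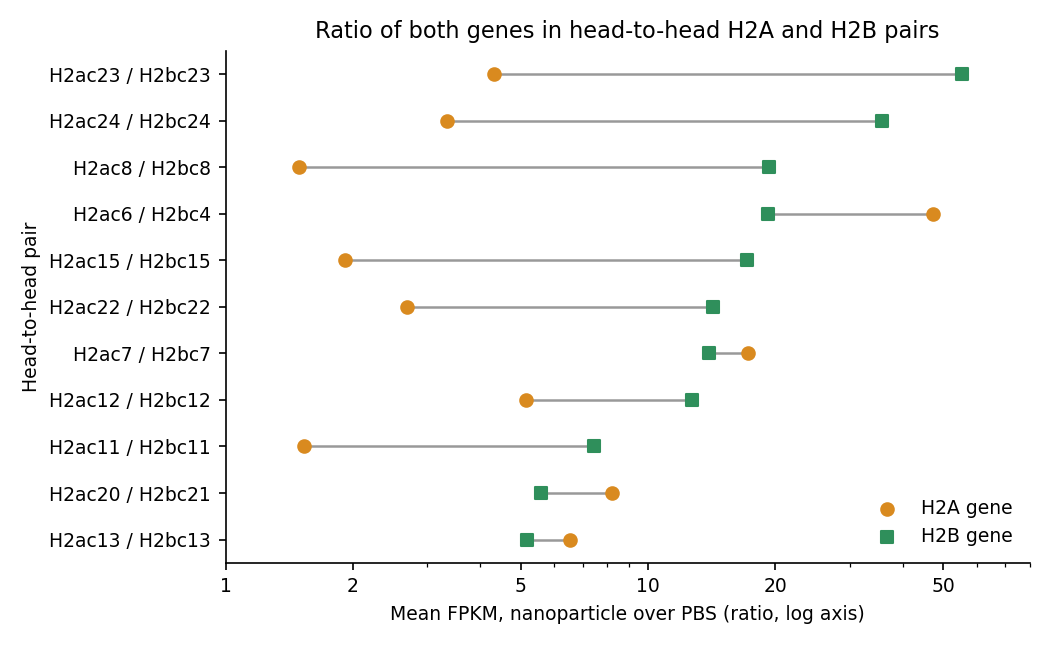
Ratio of mean FPKM, nanoparticle over PBS (log axis), of the H2A gene (circle) and the H2B gene (square) in the 11 head-to-head pairs with both ratios, ordered by the H2B ratio. H2ac8 and H2bc8 lie far apart (1.49 and 19.3), as do H2ac23 and H2bc23 (4.31 and 55.3), and the square lies to the right in 7 pairs.

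The stretch between H2ac8 and H2bc8 is printed because these neighbours had so unlike ratios. It runs between the RefSeq starts (GRCm38.p6, chr13:23571221-23571399, + strand), with H2ac8 leaving to the left and H2bc8 to the right, and with CCAAT, ATTTGCAT and TATAAA in capitals on either strand.
H2ac8 to H2bc8: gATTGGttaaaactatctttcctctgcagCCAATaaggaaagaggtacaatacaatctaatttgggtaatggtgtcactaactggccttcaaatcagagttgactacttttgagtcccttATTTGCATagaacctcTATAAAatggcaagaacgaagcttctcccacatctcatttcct
The CCAAT boxes lie on the H2ac8 side, and the ATTTGCAT octamer, a motif described for H2B promoters, lies with TATAAA on the H2bc8 side. The octamer was in 7 of 14 H2B and 6 of 17 H2A promoter windows and in no H1, H3 or H4 window, against 1.74% of all promoters. Head-to-head genes share windows, so 1 copy can count for both. A match to these letters is a description and shows no binding.

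Annotation limits how far single members can be read. A window was not unique if any other annotated gene held it on either strand, including genes that overlap the same place. A low share is therefore not always a matter of histone copies. H2bc18 had 0% unique windows but shared none with another member. The 38 members with at least 50% unique windows summed to 365 ± 20.1 FPKM with nanoparticles and 40.6 ± 2.32 with PBS, a ratio of 9. The 29 members below 50% summed to 311 ± 23.9 FPKM with nanoparticles and 19 ± 3.48 with PBS, a ratio of 16.4. The direction was the same in both sets. By annotated 3′ end, the 22 members whose transcript stops 3 to 74 bases after the stem-loop summed to 278 ± 27.5 FPKM with nanoparticles and 14.6 ± 2.75 with PBS, a ratio of 19. The 21 whose transcript runs on for 151 to 4884 bases summed to 237 ± 11 FPKM with nanoparticles and 29.1 ± 1.44 with PBS, a ratio of 8.16. Gene by gene the order was the other way round, with a median ratio of 7.81 for the first set and 15.9 for the second, and H2ac18 with H2ac19 made 159 of the 278 FPKM of the first set with nanoparticles. The 11 members with no stem-loop in the transcript had a ratio of summed FPKM of 13.1, and the 13 annotated as coding part only had 5.85 (SD, n = 3 for each mean).

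**Figure D5:**
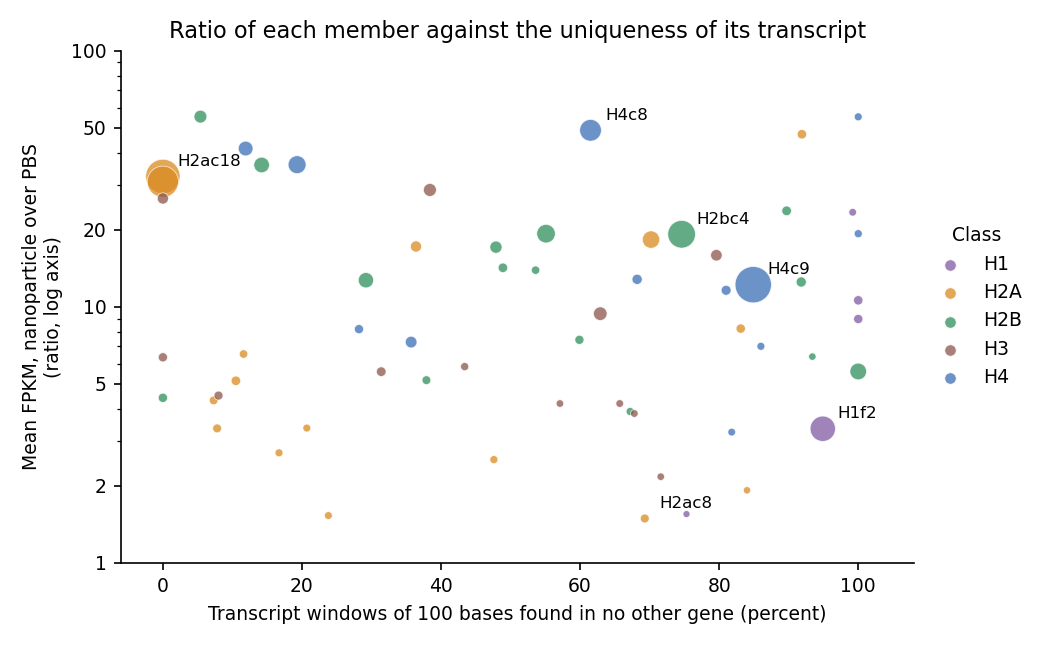
Ratio of mean FPKM, nanoparticle over PBS (log axis), of the 61 members with a value above 0 in every PBS library, against the percent of 100-base windows of the transcript found in no other gene; colour is the class and the area of a point grows with its nanoparticle level. Ratios above 30 occur at 0% (H2ac18, 32.3) as well as at 61.5% (H4c8, 48.9) and 100% (H4c14, 55.2).

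The list drawn up for the making and processing of histone mRNA split in direction. Of 29 tested, 11 rose and 13 fell, against 42.7% and 34.5% of all tested genes, and the median log2 fold change was -0.08 against 0.08 over all genes. Slbp, the stem-loop binding protein, had 67.3, 72.0 and 75.6 FPKM with nanoparticles and 60.5, 57.8 and 63.3 with PBS (log2 fold change 0.24 ± 0.06 SE, limma adjusted p = 0.0053), a call lost with upper quartile scaling (0.11). Npat, the cyclin E and Cdk2 substrate that activates histone genes, averaged 13.9 ± 1.88 FPKM with nanoparticles and 9.10 ± 0.976 with PBS (SD, n = 3 each; limma adjusted p = 0.00065). Hinfp, a factor that binds H4 promoters, averaged 23.8 ± 1.92 FPKM with nanoparticles and 10.2 ± 0.695 with PBS, a log2 fold change of 1.14. Mbd1 was also counted in this list, though no role of it in histone mRNA is shown here. Its rise had the smallest p of the list together with that of Hinfp. Mbd1 averaged 45.6 FPKM with nanoparticles and 17.7 with PBS. The U7 snRNP proteins Lsm10 and Lsm11, which serve the cut after the stem-loop, went opposite ways. Lsm10 averaged 23.5 FPKM with nanoparticles and 10.4 with PBS, and Lsm11 averaged 1.32 FPKM with nanoparticles and 3.11 with PBS. Casp8ap2 averaged 6.09 FPKM with nanoparticles and 4.65 with PBS (limma adjusted p = 0.017), and lost its call with upper quartile scaling (0.083) and without PBS replicate 2 (0.054).

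Of 32 tested genes of histone mRNA decay, 6 rose and 18 fell, against 42.7% and 34.5% of all tested genes (median log2 fold change -0.17). Upf1, the helicase recruited to histone mRNA at the end of replication, averaged 23.0 FPKM with nanoparticles and 26.1 with PBS (log2 fold change -0.17, limma adjusted p = 0.025). Its call was lost without nanoparticle replicate 2 (0.092), PBS replicate 1 (0.099) or PBS replicate 3 (0.073). Eri1, the exonuclease that trims the histone stem-loop, averaged 19.1 FPKM with nanoparticles and 18.3 with PBS (limma adjusted p = 0.57). Exosc7, a subunit of the RNA exosome, fell to 22.1 FPKM with nanoparticles, against 48.9 with PBS. Mif4gd, a partner of Slbp, rose to 37.1 FPKM with nanoparticles, against 20.2 with PBS.

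Histone chaperones carry histones to DNA. Of 32 tested, 9 rose and 20 fell, against 42.7% and 34.5% of all tested genes (median log2 fold change -0.39). Chaf1a and Chaf1b, the subunits of the replication-coupled assembly factor CAF-1, averaged 20.4 and 29.0 FPKM with nanoparticles and 27.6 and 38.2 with PBS. Asf1b, an H3 and H4 chaperone, averaged 56.4 FPKM with nanoparticles and 77.4 with PBS, and Nasp averaged 98.3 FPKM with nanoparticles and 123 with PBS. All 4 fell. Daxx, which deposits the replacement histone H3.3, went the other way, with 85.1 FPKM with nanoparticles and 20.6 with PBS (log2 fold change 2.00, limma adjusted p = 1.7e-09). Anp32b fell to 136 FPKM with nanoparticles, against 320 with PBS.

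Replication-independent histones, which are made throughout the cell cycle and mostly from polyadenylated mRNA, were more abundant than the 67 members. They summed to 2180 to 2290 FPKM with nanoparticles and to 1750 to 1910 with PBS, so they were above the replication-dependent sum in both groups. Of 9 tested, 5 rose and 4 fell, near the 42.7% and 34.5% of all tested genes. The H3.3 genes rose: H3f3b averaged 1030 ± 22.2 FPKM with nanoparticles and 369 ± 6.77 with PBS, a log2 fold change of 1.47. H3f3a had 310, 308 and 325 FPKM with nanoparticles and 130, 220 and 134 with PBS, a log2 fold change of 1.00, and PBS replicate 2 stood apart. H1f0, the linker histone of resting cells, fell to 59.2 ± 0.130 FPKM with nanoparticles, against 156 ± 1.5 with PBS, the opposite direction to H1f2. H2az1 averaged 450 FPKM with nanoparticles and 757 with PBS. H2ax, the DNA damage histone whose transcript holds the same stem-loop motif, averaged 89.2 ± 7.67 FPKM with nanoparticles and 122 ± 8.87 with PBS (SD, n = 3 each; limma adjusted p = 0.00042).

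Genes of S phase were tested in the same libraries. Of 53 genes of S phase entry and DNA replication tested, 6 rose, 37 fell and 10 were not called, against 42.7% and 34.5% of all tested genes that rose or fell (median log2 fold change -0.57, against 0.08 over all genes). Pcna, the sliding clamp of replication, had 239 FPKM with nanoparticles and 338 with PBS as group means. Ccne1 and Ccne2, the E cyclins of S phase entry, averaged 13.6 and 11.4 FPKM with nanoparticles and 26.6 and 18 with PBS. Tk1, thymidine kinase, averaged 15.2 FPKM with nanoparticles and 121 with PBS (log2 fold change -2.92), and Uhrf1, which copies DNA methylation marks at replication, averaged 30.2 FPKM with nanoparticles and 86.0 with PBS.

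Markers of the cells were read from the same table. Of 12 macrophage markers 4 rose and 7 fell, against 42.7% and 34.5% of all tested genes, and they summed to 1960 to 2120 FPKM with nanoparticles and 3990 to 4180 with PBS. Lyz2 averaged 395 FPKM with nanoparticles and 1500 with PBS, and Csf1r averaged 49.1 FPKM with nanoparticles and 296 with PBS. Cd68, which is common to macrophages, averaged 606 FPKM with nanoparticles and 792 with PBS, so the label of the line has its marker in both groups. The part of these marker changes in the histone result was not tested. The 9 markers of fibroblasts and epithelia summed to 0.404 to 0.784 FPKM with nanoparticles and 0 to 0.351 with PBS, and the 9 of T and B cells to 0.639 to 0.859 FPKM with nanoparticles and 0.134 to 0.206 with PBS. The 7 germ cell markers, a check because some members are testis histones, summed to 0.197 to 0.227 FPKM with nanoparticles and 0 with PBS. Krt18, Cd3g, Cd8a, Tnp1, Tnp2 and Prm2 were listed at 0 in every library. The part of these cells in the histone result was not tested.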

How the data were processed

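RNA-seq values of 6 RAW264.7 libraries, 3 with nanoparticles and 3 with PBS, were read from the deposited table of 22614 rows, of which 22105 carry an Ensembl gene identifier. The authors' values were taken as FPKM: the header names no unit, and it was inferred from the values. The submitters' processing notes name STAR, featureCounts, GRCm38 and mm10, without versions or roles. Depth and strand use are not stated in the sources used, and no counting error can be given. Library sums of FPKM ran from 451056 to 469220. The column of PBS replicate 1 has a suffix whose meaning is not given.

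The 10229 genes that averaged 1 FPKM or more over the 6 libraries were tested two-sided with limma 3.58.1 in R 4.3.3, with a trend, on log2(FPKM + 1), which understates fold changes of low genes. P-values were Benjamini-Hochberg adjusted over all tested genes. On simulated data the script was tested before use. Class sums got no test. Deviations of same-numbered libraries from their group means had correlations of 0.13, 0.11 and 0.35. The labels do not pair the samples, and no correlations of different-numbered libraries are given beside these, so pairing is not settled. The main fit did not pair the samples. Transcripts were GENCODE M21 and promoters RefSeq GRCm38.p6. Named genes were the H1 genes, the 3 most abundant members of each other class, tested members not called or with the largest or smallest change, and, from the lists, set regulators and the 2 smallest p-values of each. The low and high ratios, clusters and pairs named beside them were chosen after their values were seen. The members and lists were chosen with earlier results of these data known. Alternatives were other pseudocounts, filters and scalings, no trend, a replicate block and leaving out each library.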

Additional observations from a re-analysis of the deposited data

How the results depend on the processing

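The class sums and the fold changes of tested members and named list genes kept their direction under each alternative run, except Eri1, which was not called in any: its log2 fold change of 0.05 was -0.06 with upper quartile scaling, -0.02 with median-ratio scaling and -0.02 to 0.09 with each library left out in turn (-0.02 without nanoparticle replicate 3). List medians, cluster sums and pair ratios were not recomputed. The filters moved the count of members called the most, since few members have a high level in PBS libraries: 14 were called at a mean of 5 FPKM and 11 with the filter on the PBS mean alone, against 47, all of them higher with nanoparticles, and in both cases fewer members were tested. The PBS filter and the sum over members with at least 50% unique windows were chosen after seeing the data. The log2 ratio of the summed FPKM without the most abundant member of the class was 3.05 in H1 (1.88 with it), 3.46 in H2A (3.92), 3.54 in H2B (3.74) and 4.39 in H4 (3.93). Over members with at least 50% unique windows it was 3.00 in H2A, 2.94 in H3 (3.16) and 3.17 over all members (3.51). Over members with a mean of at least 1 FPKM it was 3.40 in H3. Upper quartile scaling, which moves the median log2 fold change of all genes from 0.08 to -0.03 and the share of higher calls from 55.3% to 47.2%, gave 3.62 in H2B, 3.04 in H3 and 3.39 over all members. With each library left out in turn, the log2 ratio ran from 1.78 to 1.96 in H1, 3.83 to 4.04 in H2A, 3.67 to 3.78 in H2B, 3.11 to 3.22 in H3, 3.85 to 4.03 in H4 and 3.45 to 3.59 over all members, and 42 to 49 members were called. With the replicate block 47 members and 8351 genes were called, against 47 and 7896 without it, and the block changed no call of a histone member. It called 28 genes of histone mRNA decay, against 24. Depth is unknown, so what it limits for the members below 1 FPKM cannot be stated.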
